A study of Mus musculus with 2 samples.

Results

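The DNA replication genes described here are 41 genes of S phase, the phase of the cell cycle in which the genome is copied. They were listed by name, by function and not by their values, and all 41 had a row in the count tables, among 23154 genes. They were followed in 87 single cells of the mouse yolk sac at E10.0, in the middle of gestation. The cells were PK44 cells, sorted as CD41-CD43-CD45-CD31+CD201+Kit+CD44+, a surface phenotype that in the embryonic aorta marks hemogenic endothelial cells, the endothelial cells from which blood stem cells arise. There was 1 condition and no control group. Replicate 1 held 43 cells and replicate 2 held 44 cells, each cell picked by mouth pipette and profiled by modified STRT-seq, which tags every transcript with a unique molecular identifier (UMI). The study's methods give C57BL/6 as the background of its mice, and the number of embryos behind each library was not given in the labels.

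The cells carried the RNA of the sort. *Pecam1* (CD31) had a count in 86 of 87 cells, *Cdh5* (VE-cadherin) in 87, *Cd44* in 85, *Procr* (CD201) in 80 and *Kit* in 66. *Ptprc* (CD45) had a count in 3 cells and *Spn* (CD43) in 9, whereas *Itga2b*, which encodes CD41, had a count in 56. Replicate 1 held 8932527 counts, 13218 to 702028 per cell with a median of 141577, and replicate 2 held 12706360, 51620 to 956593 per cell with a median of 238898.5. Because shares and correlations move with depth, each cell was also thinned at random to 20000 counts, which left out 1 shallow cell of replicate 1 and kept 86. The thinned cells of replicate 1 still had fewer genes, a median of 2362.5 against 3652.5. Cells are named by well number in the tables, and the libraries shared 0 of these. In 3 cells, 2 of replicate 1 and 1 of replicate 2, *Col1a1*, *Col1a2*, *Col3a1* and *Lum*, from a list of 8 mesenchymal markers, each had at least 100 counts. The comparisons of summed counts were also run without these collagen-high cells. So were the median correlation between replication genes and their correlations with *Runx1* and *Gja5*, but not the other values.

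Preparation for replication begins in G1, when Cdc6 and Cdt1 load the ring of Mcm2 to Mcm7 onto origins. Cdc45 and the GINS complex then turn this ring into the active helicase, primase and the polymerases copy the strands behind it, and the sliding clamp Pcna holds the polymerases on DNA. Most of these genes are transcribed together before and during S phase under E2F factors, which are released when cyclin-dependent kinases, that of cyclin E among them, disable the retinoblastoma protein. In the embryo, hemogenic endothelium expresses *Runx1*, the transcription factor needed for the transition from endothelium to blood, while *Gja5* encodes connexin 40 of arterial endothelium.

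Promoters were searched for elements known from replication genes. The letter strings of the E2F site were searched on both strands in the 250 bases before each start (TTTCCCGC, TTTCGCGC, TTTGCCGC and TTTGGCGC), along with the CCAAT box, CCAAT. RefSeq promoters on GRCm38.p6 matched 32 of the 41 genes, with 37 promoters, all but *Mcm4*, *Gins1*, *Gins2*, *Prim2*, *Pole*, *Rfc2*, *Atad2*, *Tipin* and *Ccne2*. An E2F string stood in 8 of the 37 promoters (21.6%), those of *Uhrf1*, *Mcm6*, *Mcm7*, *Mcm5*, *Rfc3*, *Dtl*, *Pola1* and *Cdc6*, and in 1.86% of all 32851 promoters of the table. CCAAT stood in 21 of 37 (56.8%) and in 33.8% of all. An E2F string and its reverse complement can share letters at one place, and a match describes the sequence and not a bound site. The promoters below are those of the 4 genes with an E2F string with the highest median Spearman correlation (rho) across cells to the other replication genes, taken in the library where it was lower. They run 5′ to 3′ on the gene's own strand, and capitals mark the E2F matches.
*Uhrf1* promoter, chr17:56304063-56304312, plus strand: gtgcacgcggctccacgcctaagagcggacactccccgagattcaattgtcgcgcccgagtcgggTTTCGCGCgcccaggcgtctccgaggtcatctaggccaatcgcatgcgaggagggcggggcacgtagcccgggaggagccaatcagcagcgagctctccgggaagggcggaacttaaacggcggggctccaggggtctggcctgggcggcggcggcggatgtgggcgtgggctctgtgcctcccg
*Mcm6* promoter, chr1:128359706-128359955, minus strand: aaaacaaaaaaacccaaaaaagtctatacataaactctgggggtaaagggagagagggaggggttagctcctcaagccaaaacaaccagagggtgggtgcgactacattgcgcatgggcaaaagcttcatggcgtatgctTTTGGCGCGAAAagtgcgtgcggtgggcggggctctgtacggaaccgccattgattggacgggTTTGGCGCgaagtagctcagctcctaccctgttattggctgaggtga
*Mcm7* promoter, chr5:138171884-138172133, minus strand: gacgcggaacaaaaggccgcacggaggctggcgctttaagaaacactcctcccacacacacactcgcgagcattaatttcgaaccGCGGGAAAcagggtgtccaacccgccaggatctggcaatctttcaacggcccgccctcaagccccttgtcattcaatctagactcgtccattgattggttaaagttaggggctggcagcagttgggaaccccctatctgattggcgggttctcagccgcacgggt
*Mcm5* promoter, chr8:75109259-75109508, plus strand: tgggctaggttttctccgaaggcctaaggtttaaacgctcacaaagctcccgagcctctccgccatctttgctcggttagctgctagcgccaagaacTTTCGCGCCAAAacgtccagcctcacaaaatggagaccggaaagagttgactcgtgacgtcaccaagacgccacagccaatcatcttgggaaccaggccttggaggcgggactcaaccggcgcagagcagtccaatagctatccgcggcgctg
*Mcm6* had 3 matches, of which 2 overlap on opposite strands, *Mcm5* had 2 that overlap in the same way, and *Uhrf1* and *Mcm7* had 1 each. The promoters of *Mcm6* and *Mcm5* lie outside the bounds of these genes in GENCODE M21, upstream of them, while those of *Uhrf1* and *Mcm7*, which end at the RefSeq start, lie inside the GENCODE bounds of their genes.

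The replication genes were measured in both libraries at much the same summed level. In CPM, the counts of a gene per 1000000 counts of the library or cell, the 41 genes added up to 5528 (replicate 1) and 4737 (replicate 2), or 0.553% and 0.474% of all counts (5132 ± 559.3 CPM, SD, n = 2). Of the 3567 values (41 genes in 87 cells), 2491 (69.8%) were above 0, with a median of 18 counts, and 18.1% of these were a single count. Detected in most cells of both libraries were 29 of the 41 genes, and 11 after thinning. Counts were taken near one transcript end and were not scaled for gene length, so that an order of genes by CPM is an order of counts.

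The loading of the helicase gave the largest sum, 1487 and 1283 CPM for 8 genes. *Mcm6*, a subunit of the helicase ring, was at 418.6 and 315.0 CPM (replicates 1 and 2, in this order throughout) and was detected in 78 of 87 cells, with 0 to 1787 CPM per cell in replicate 1 (median 280.9) and up to 1015 in replicate 2 (median 168.7). The other ring subunits had 139.5 and 131.3 CPM (*Mcm2*), 234.3 and 194.2 (*Mcm3*), 178.2 and 100.8 (*Mcm4*), 182.4 and 196.3 (*Mcm5*) and 224.0 and 193.8 (*Mcm7*), with a count in 71 to 78 cells. The ring subunits were thus detected in more cells than the loaders. *Cdt1* had a count in 57 cells (94.26 and 93.26 CPM) and *Cdc6* in 31 (16.23 and 58.55 CPM), the fewest cells of the 41 genes. Helicase activation was low, with *Gins2* at 96.17 and 90.58 CPM (50 cells), *Gins1* at 44.67 and 47.38 (44 cells) and *Cdc45* at 31.35 and 43.44 (32 cells).

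Among the polymerases, the primase subunit *Prim1* had the highest mean, with 120.6 and 83.5 CPM in 59 cells. *Pole*, the leading-strand polymerase, had 141.5 CPM in replicate 1 and 46.2 in replicate 2, and *Pold1*, the catalytic subunit of polymerase delta, 84.41 and 89.48. *Pola1* had 72.43 and 29.36 CPM, *Prim2* 63.92 and 38.8 and *Pola2* 54.07 and 29.98, all below the sliding clamp. *Pcna* had 263.0 and 212.9 CPM and a count in 82 of 87 cells, more cells than any other of the 41 genes. Of the clamp loader, *Rfc2* had 121.9 and 217.2 CPM, with a count in all 44 cells of replicate 2, *Rfc3* 126.3 and 49.5, *Rfc4* 56.53 and 71.07, and *Rfc5* 97.51 and 84.84.

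The replication gene with the most counts was *Lig1*, the ligase that seals Okazaki fragments, at 427.8 and 397.1 CPM (412.5 ± 21.71, SD, n = 2) in 81 cells. Its level per cell reached 1698 CPM in replicate 1 (median 267.3) and 1624 in replicate 2 (median 279.2). The flap nuclease *Fen1* had 138.4 and 98.38 CPM, and the single-strand binding proteins *Rpa1* and *Rpa2* had 119.1 and 121.4 and 164.3 and 121.8. For the supply of nucleotides, *Rrm1* had 279.9 and 192.1 CPM (75 cells), its partner in ribonucleotide reductase *Rrm2* 148.3 and 219.5 (75 cells), and thymidylate synthase *Tyms* 195.7 and 230.4 (79 cells).

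Among genes that rebuild chromatin on new DNA, the chromatin ATPase *Atad2* had the highest mean, 238.0 and 108.2 CPM (65 cells), and *Uhrf1*, which hands DNA methylation to the daughter strand, was detected most widely, at 185.5 and 151.5 CPM in 81 cells. The assembly factor subunits *Chaf1a* and *Chaf1b* had 74.56 and 94.68 and 66.27 and 54.22 CPM, and *Slbp*, which binds histone mRNA, 51.16 and 115.8. *Tipin* of the fork protection complex had 115.4 and 149.9 CPM (62 cells), the checkpoint mediator *Clspn* 94.04 and 84.92 (48 cells), the uracil glycosylase *Ung* 122.8 and 46.59 (59 cells) and *Dtl*, which directs Cdt1 to degradation, 99.3 and 19.91 (47 cells). The genes of entry into S phase had the lowest sum, 145.6 and 112.6 CPM, with *Ccne1* at 78.03 and 52.18 CPM (50 cells), *Ccne2* at 31.79 and 21.88 (37 cells) and *E2f1* at 35.82 and 38.56 (51 cells).

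**Figure D1:**
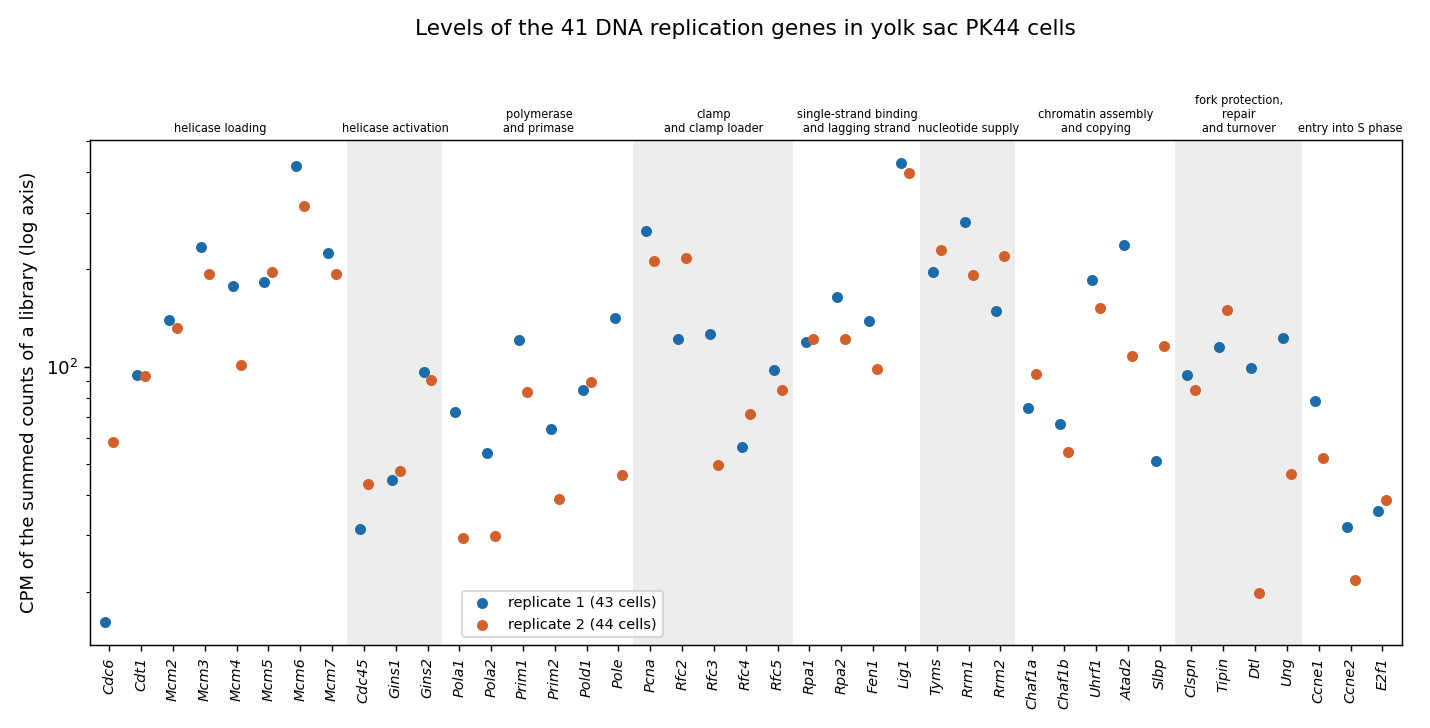
Summed counts of each of the 41 genes in each library in CPM (log axis), grouped by role, with replicate 1 in blue and replicate 2 in orange. *Lig1* and *Mcm6* stand highest, and *Dtl* differs most between the libraries (99.3 against 19.91 CPM).

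Between the libraries, which are replicates of one condition, 14 genes were higher and 27 lower in replicate 2. Over 2-fold apart were 8 genes, with *Cdc6* and *Slbp* higher in replicate 2 and *Pola1*, *Pole*, *Rfc3*, *Atad2*, *Dtl* and *Ung* higher in replicate 1. The same shares over all genes were not counted, so these counts are no result about the replication genes in particular.

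Single cells ranged from few to nearly all replication genes. The summed level ran from 509.7 to 11150 CPM per cell in replicate 1 (median 5040) and from 919.9 to 9390 in replicate 2 (median 3940). At 20000 counts per cell, 5 to 35 of the 41 genes had a count in a cell of replicate 1 (median 16) and 5 to 34 in replicate 2 (median 18.5). The module was called on in a cell with a count of at least 11 of the 41 genes. By this measure it was on in 32 of 42 cells of replicate 1 (76.2%, exact Clopper-Pearson 95% interval 60.5% to 87.9%) and in 39 of 44 cells of replicate 2 (88.6%, 75.4% to 96.2%). The intervals overlap and cover counting error only. The share followed the threshold and the depth, at 59.5% and 72.7% with at least 14 genes required, and 93.0% and 100% without thinning.

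In replicate 2, 13 cells had 16 to 20 of the genes, 2 had 21 to 25 and 11 had 26 to 30, whereas in replicate 1 these ranges held 11, 5 and 3 cells. The lowest and highest cells were not the shallowest and the deepest of their library. In replicate 1, however, the 3 lowest cells held 43343 to 68662 counts, below the library's median of 141577. The 3 highest held 87289 to 263959. The cell of replicate 1 with the least replication RNA (509.7 CPM, 68662 counts) had 16710 CPM over the 48 mitosis genes, and the cell with the most (11150 CPM, 87289 counts) had 2635 CPM. In replicate 2 the 3 cells with the least had 919.9 to 953.8 CPM at 134030 to 240097 counts, and the 3 with the most 8336 to 9390 CPM at 102237 to 273264 counts.

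**Figure D2:**
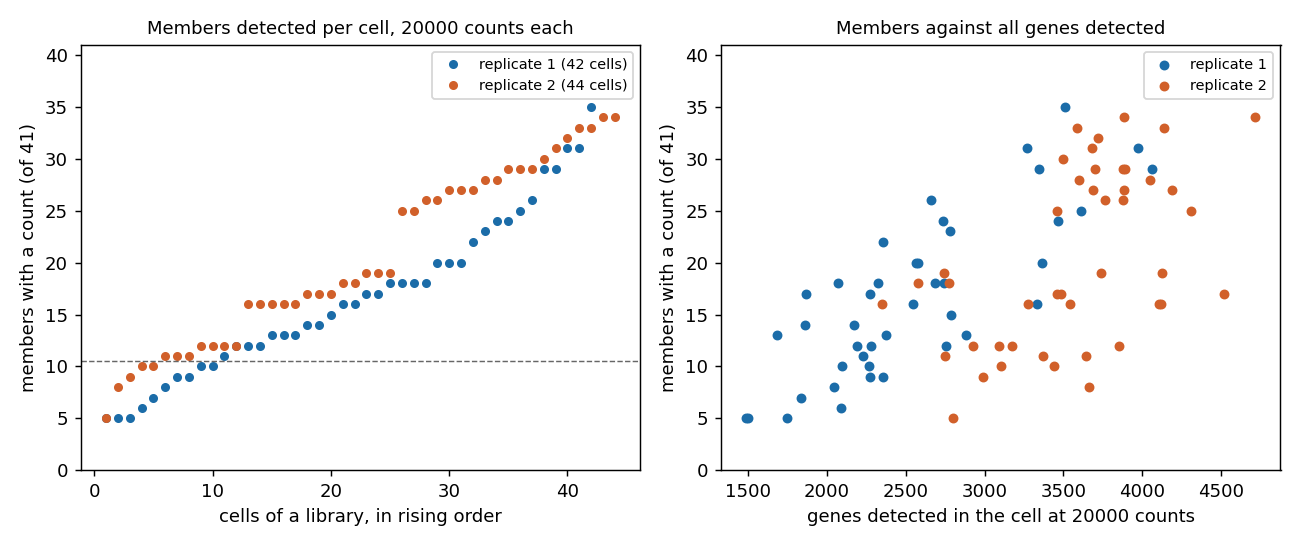
Left, number of the 41 genes with a count in each cell thinned to 20000 counts, in rising order within each library, with a dashed line between 10 and 11. Right, the same number against all genes detected in the thinned cell. Both libraries start at 5, and cells with more genes detected held more of the 41.

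The number of replication genes detected varied with the breadth of the cell's transcriptome. Across cells, it correlated with the number of all genes detected at a Spearman rho of 0.768 in replicate 1 and 0.535 in replicate 2, and the summed count of the 41 genes at 0.482 and 0.244. With the depth before thinning, the summed count correlated at 0.438 and 0.288. All correlations here are over the 42 and 44 thinned cells of each library, which share their library and capture, and are given as descriptions. The part of breadth and depth in the results below was not tested beyond the values given as adjusted for genes detected or with genes detected held fixed.

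The replication genes varied together from cell to cell. Among the 37 genes with a count in at least 20% of the thinned cells of both libraries, each one correlated positively with the sum of the others in both libraries. The other 4, *Cdc6*, *Cdc45*, *Gins1* and *Ccne1*, were too sparse in replicate 1. The median rho over pairs of genes was 0.159 in replicate 1 (37 genes, 666 pairs) and 0.213 in replicate 2 (41 genes, 820 pairs). Over all pairs of genes with the same detection it was 0.03 (4547 genes) and 0.009 (6531 genes). Of the pairs of replication genes, 84.5% and 88.8% had a rho above 0, against 57.3% and 52.2% of all pairs. With genes detected held fixed, the medians were 0.1 and 0.18, against 0.004 and -0.002. Of the 666 pairs measured in both libraries, 501 (75.2%) were above 0 in both and 17 below 0 in both. Most single pairs were weakly correlated, with a range of -0.257 to 0.602 in replicate 1 and -0.369 to 0.643 in replicate 2.

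Genes of one machine were no more alike than genes of different machines in replicate 1, with a median rho of 0.156 for pairs of the same role and 0.16 for pairs of different roles. In replicate 2 the medians were 0.247 and 0.209. The 15 pairs within the ring of Mcm2 to Mcm7 had medians of 0.177 and 0.242. Of the 666 pairs measured in both libraries, 594 joined different roles. Ranked by the lower of their rhos in the 2 libraries, the first 5 pairs each joined different roles as well. They were *Mcm6* with *Clspn* (0.493 and 0.563), *Rrm1* with *Uhrf1* (0.492 and 0.495), *Pcna* with *Uhrf1* (0.444 and 0.641), *Mcm7* with *Uhrf1* (0.418 and 0.462) and *Mcm5* with *Lig1* (0.416 and 0.445). *Uhrf1*, *Mcm6*, *Mcm7* and *Mcm5*, whose promoters are printed above, were chosen for printing by their rho in these same cells. Their place in these pairs is therefore no separate result.

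Ranked by their median rho to the other genes, taken in the library where it was lower, the first 5 genes were *Uhrf1*, with medians of 0.291 and 0.27, *Clspn* (0.262 and 0.306), *Rrm1* (0.262 and 0.241), *Lig1* (0.279 and 0.213) and *Mcm6* (0.211 and 0.301). At the other end were *Pold1* (0.046 and 0.066), *Prim2* (0.11 and 0.069) and *Cdt1* (0.074 and 0.094).

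**Figure D3:**
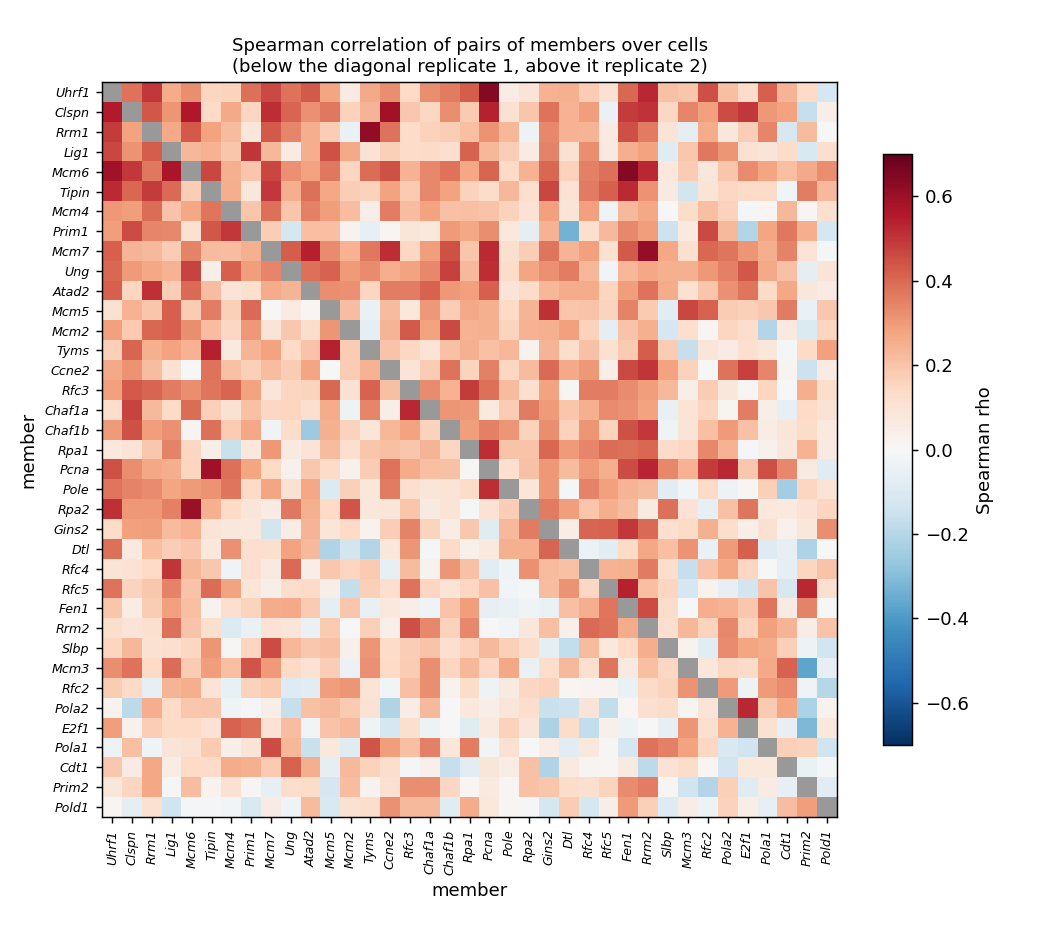
Spearman rho of each pair of the 37 genes across thinned cells, with replicate 1 below the diagonal and replicate 2 above it, and genes ordered by their median rho in the library where it was lower. Most pairs are red (above 0) on both sides of the diagonal, and pairs fade toward *Pold1* at the end of the order.

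Genes outside the list whose level was most like the summed count of the replication genes were sought among 4313 genes detected in at least 20% of the thinned cells of both libraries. *Dek*, a chromatin protein, came first, with a rho of 0.696 and 0.743. Others were the histone chaperone *Nasp* (0.622 and 0.54), the histone acetyltransferase *Hat1* (0.539 and 0.584), the chromatin remodeler *Hells* (0.521 and 0.642) and *2810417H13Rik*, the Pcna-associated factor *Pclaf* (0.664 and 0.488). *Npm1* (0.476 and 0.604), *Ranbp1* (0.502 and 0.473), the purine synthesis enzyme *Paics* (0.444 and 0.47) and thymidine kinase *Tk1* (0.442 and 0.459) also belonged to the first 10. The genes least like it were *Adipor1* (-0.337 and -0.359), the VEGF receptor *Flt1* (-0.338 and -0.33), the tight junction gene *Cldn5* (-0.303 and -0.442), *Ets1* (-0.299 and -0.34) and *Ets2* (-0.294 and -0.302).

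Other replication genes, a list of 69 that held no member, varied with the 41. Of the 48 detected widely enough, 43 (89.6%) had a rho above 0 with the module in both libraries. The sum of all 69 correlated with that of the 41 genes at 0.807 and 0.84. Of 42 mitosis genes, 32 (76.2%) were above 0 in both. The sum of all 48 listed mitosis genes correlated with that of the 41 genes at 0.338 and 0.279. Over all 4313 genes 42.6% were above 0 in both. When each library was split at the median of both sums, 13 and 14 cells were high in both, 8 and 8 in replication genes alone, 8 and 8 in mitosis genes alone, and 13 and 14 in neither. Among single mitosis genes, *Top2a* had a rho of 0.496 and 0.393 with the module, and *Mki67* 0.289 and 0.452. With the module sum alone adjusted for genes detected, *Top2a* had 0.326 and 0.398 and *Mki67* 0.045 and 0.478. The summed mitosis genes then had 0.201 and 0.277, and the summed other replication genes 0.679 and 0.846. Of 7 D cyclin, Cdk and Cdk inhibitor genes, 4 were above 0 in both.

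Of 17 endothelial genes 0 had a rho above 0 with the module in both libraries. Their median rho was -0.215 and -0.227, against 0.091 and 0.027 over all 4313 genes compared. The sum of all listed endothelial genes but *Gja5* correlated with the replication genes at -0.465 and -0.371. With the sum of the replication genes alone adjusted for genes detected, these values were -0.332 and -0.318. Of 8 hematopoietic genes 7 were above 0 in both, and the sum of all listed ones but *Runx1* correlated at 0.301 and 0.249. With the same adjustment the hematopoietic sum had 0.193 and 0.188. All of these values share cells, and counts in a thinned cell share a fixed total.

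To describe the same coordination in summed counts, the cells of each library were split at the median summed CPM of *Mcm2* to *Mcm7*. The counts of each side were added up, and the other 35 replication genes were compared between the sums of high and low cells. These cells and genes also gave the correlations above, so the outcome is no separate support for the coordination. The Mcm sum was 1864.71 against 655.38 CPM in replicate 1 and 1572.71 against 503.03 in replicate 2. Of the 35 genes, 26 (74.3%) were higher in the Mcm-high cells of both libraries, where 28.3% of all 10650 tested genes were, and 1 was lower in both, *Prim2*, where 24.2% of all genes were. The median log2 fold change of the 35 was 0.825, at 0.552 and 1.253 in the 2 libraries, and that of all genes was -0.005.

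No single gene passed the test with these 4 sums. In the quasi-likelihood test of edgeR, Benjamini-Hochberg adjusted, 0 of 35 passed (0.0% of all tested genes did), with a smallest adjusted p of 0.999. With the library as a replicate block 0 of 35 passed (0.16% of all), with a smallest adjusted p of 0.219 by edgeR, and DESeq2 also called 0 of 35 (0.22% of all). At an unadjusted p under 0.05, edgeR called 4 of 35, all higher (2.95% of all genes in either direction), and with the replicate block 13 of 35 (5.47% of all).

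The 4 were *Uhrf1*, *Cdt1*, *Tipin* and *Rpa1*. *Uhrf1* had 246.0 against 96.04 CPM in replicate 1 and 206.9 against 72.68 in replicate 2, a log2 fold change of 1.41 ± 0.45 (SE). *Cdt1* had 144.7 against 19.71 and 117.5 against 58.75 CPM (1.74 ± 0.65). *Tipin* had 138.6 against 81.06 and 211.8 against 61.81 (1.27 ± 0.49), and *Rpa1* 149.7 against 73.84 and 159.2 against 67.53 (1.11 ± 0.47). For each of these 4 the value in the high cells of either library lay above that in the low cells of both. They were chosen by p in the same sums, and the share of all genes separated in this way was not counted. Next by p came *Pola1*, with 105.1 against 24.15 and 39.52 against 14.88 CPM (1.87 ± 0.82). *Prim2* had 40.53 against 98.54 and 35.9 against 42.92 CPM (-0.92 ± 0.70), its higher values in the Mcm-low cells. The only other negative log2 fold changes were those of *Pole* (-0.31 ± 0.83) and *Pola2* (-0.39 ± 1.13), and they had opposite signs in the libraries.

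All 5 genes of chromatin copying and all 4 of the lagging strand were higher in the Mcm-high cells of both libraries, as were 4 of 5 of the clamp and its loader and 2 of 6 polymerase and primase genes. In replicate 1, *Pcna* (255.3 against 274.3 CPM), *Rrm2* (123.5 against 185.1), *Pola2*, *Pole*, *Gins2*, *Pold1*, *Clspn* and *Ccne1* had slightly to clearly lower values in the Mcm-high cells. In replicate 2 all of these had higher values there, such as *Pcna* at 299.4 against 89.66 CPM and *Rrm2* at 313.5 against 85.65.

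Of 67 other replication genes tested, 41 were higher in both libraries and 2 lower, with 0 called by edgeR and 2 at an unadjusted p under 0.05, both higher. The most abundant of them were *Top1* (525.1 against 456.4 and 605.2 against 530.3 CPM), *Nasp* (625.3 against 665.1 and 493.7 against 229.5), *2810417H13Rik* (390.4 against 401.7 and 647.8 against 369.3) and *Hells* (332.5 against 298.7 and 468.0 against 146.1). Mitosis genes were split, with 10 of 48 higher and 13 lower in both. Of 22 endothelial genes 15 were lower and 0 higher in both, and of 12 hematopoietic genes 9 were higher and 0 lower.

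The Mcm-high cells were deeper, with the median cell holding 230059 counts against 103849 (replicate 1) and 278987 against 202121.5 (replicate 2). When cells were thinned to 20000 counts before the split, the median log2 fold change was 1.076 over the 34 genes then tested. Of the 3 collagen-high cells 1 lay on each side in replicate 1 and 1 on the low side in replicate 2, and without them the median was 0.909.

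Next, the replication genes were set against *Runx1* and *Gja5*, which mark the hematopoietic and the arterial side of these cells. *Runx1* stood at 300.4 and 136.5 CPM and was detected in 68 of 87 cells, and *Gja5* stood at 126.4 and 614.7 CPM and was detected in 78 cells. They were negatively correlated across cells, with a rho of -0.311 and -0.486 between them.

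In the thinned cells the rho of the summed replication genes with *Runx1* was 0.056 in replicate 1 and 0.249 in replicate 2. Over 20 draws of the thinning it averaged 0.149 (0.032 to 0.278) and 0.237 (0.061 to 0.413), and 24 of 42 and 21 of 44 thinned cells held a *Runx1* count. With another seed of the thinning it was 0.137 and 0.384, without thinning 0.173 and 0.34, and for the number of replication genes detected in place of their sum 0.118 and 0.382. With the summed replication genes, but not *Runx1*, adjusted for genes detected it was -0.057 and 0.181. *Gja5* had a rho of -0.199 and 0.033 with the replication genes, and averages over draws of -0.125 (-0.279 to 0.12) and 0.023 (-0.107 to 0.134). Without thinning the rho with *Gja5* was -0.005 and 0.018, and with another seed 0.12 and -0.107. A *Gja5* count was held by 17 of 42 and 38 of 44 thinned cells, so it was sparse in replicate 1 only. Correlations this weak, which moved with the draw of the thinning, are no finding.

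**Figure D4:**
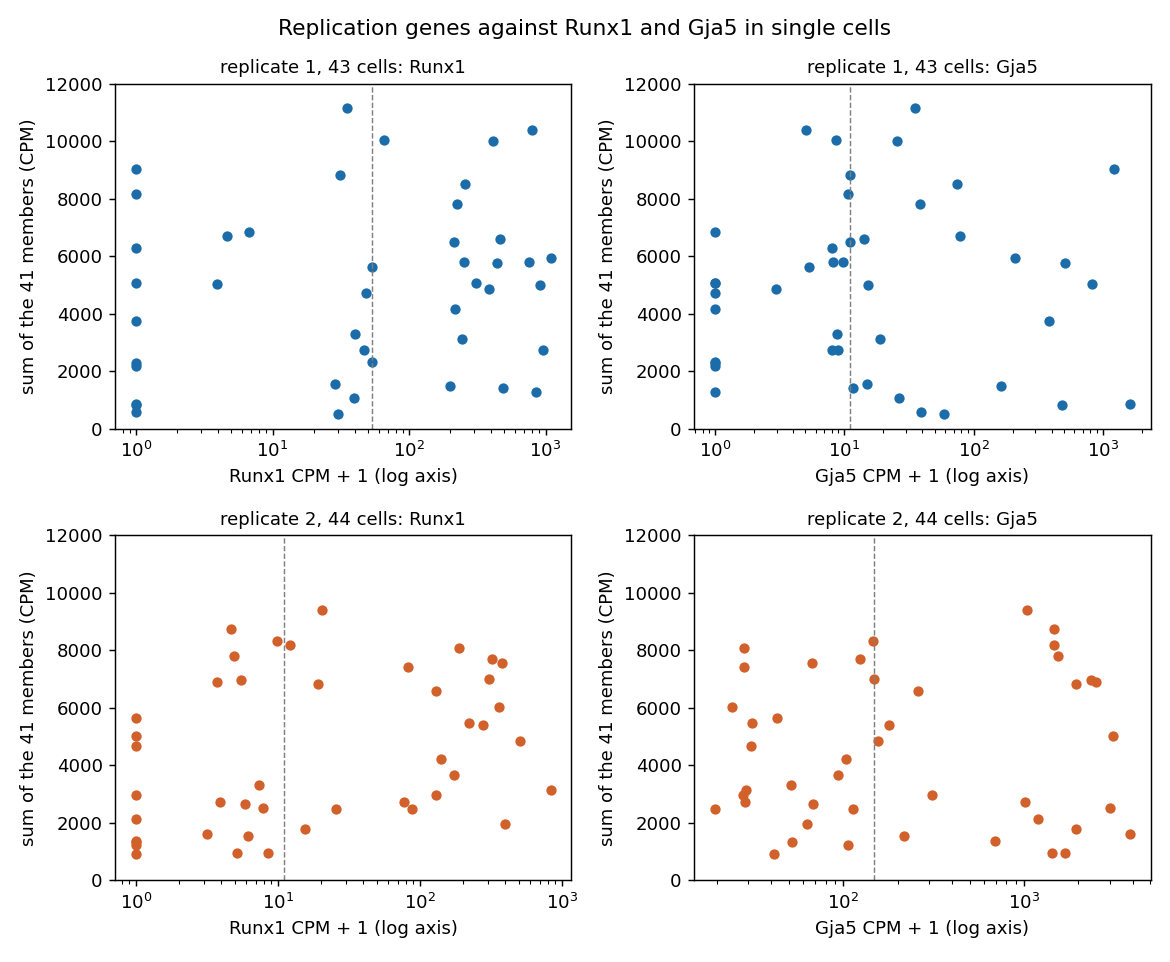
Summed CPM of the 41 genes in each cell against CPM + 1 of *Runx1* (left) and *Gja5* (right) on log axes, with replicate 1 above and replicate 2 below and a dashed line at the library's median of the gene on the horizontal axis. High and low sums occur on both sides of each line, as the ranges of 1286 to 10390 CPM and 509.7 to 11150 CPM in *Runx1*-high and *Runx1*-low cells of replicate 1 show.

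The cells of each library were then split at the median of *Runx1* CPM. The *Runx1*-high cells began at 52.73 CPM in replicate 1 and at 11.2 CPM in replicate 2. High and low are thus relative to the library and not the same level in both. In replicate 1 the 21 *Runx1*-high cells had 1286 to 10390 CPM of replication genes (median 5775) and the 22 *Runx1*-low cells 509.7 to 11150 (median 4217). In replicate 2 the 22 high cells had 1788 to 9390 CPM (median 5441) and the 22 low cells 919.9 to 8728 (median 2700). The ranges overlapped almost wholly. At 20000 counts the module was on in 16 of 21 *Runx1*-high and 16 of 21 *Runx1*-low cells of replicate 1, and in 21 of 22 and 18 of 22 of replicate 2. The median number of the 41 genes detected was 18 against 14 in replicate 1 and 26 against 16 in replicate 2. *Runx1*-high cells were deeper, with medians of 260240 against 95376 and 271733.5 against 213444 counts.

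In the test on summed counts, 17 of 41 replication genes (41.5%) were higher in the *Runx1*-high cells of both libraries, where 29.8% of all 10629 genes were, and 6 (14.6%) were lower in both, where 25.5% were. The median log2 fold change was 0.077, with -0.18 in replicate 1 and 0.391 in replicate 2, and -0.007 over all genes. By edgeR with Benjamini-Hochberg adjustment 0 of 41 passed, with a smallest adjusted p of 0.898, and 0.00941% of all genes did, which was the single gene *Col1a1*, named here after its value was seen. With the replicate block 0 of 41 passed by edgeR (1.56% of all, smallest adjusted p 0.539), and by DESeq2 0 of 41 (1.04% of all). At an unadjusted p under 0.05, edgeR called 0 of 41 (5.53% of all), and with the replicate block 3 of 41 (8.66% of all).

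The 5 genes with the smallest unadjusted p among those with higher values were *Rpa1*, with 148.4 against 65.87 CPM in replicate 1 and 151.4 against 76.62 in replicate 2 (log2 fold change 1.04 ± 0.50, SE), *Mcm3*, with 298.8 against 117.2 and 217.0 against 160.3 (0.87 ± 0.44), *Lig1*, with 517.2 against 265.4 and 444.2 against 327.1 (0.67 ± 0.38), *Mcm7*, with 260.3 against 158.2 and 227.0 against 144.2 (0.65 ± 0.42), and *Rfc5*, with 120.1 against 56.42 and 99.56 against 62.9 (0.85 ± 0.55). *Rpa1*, *Mcm3* and *Lig1* are the 3 genes with an unadjusted p under 0.05 in the blocked fit. Among those with lower values *E2f1* came first, with 28.65 against 48.85 and 26.3 against 56.83 CPM (-0.97 ± 0.79). It was followed by *Ung* (-0.89 ± 0.79), *Gins2* (-0.72 ± 0.66), *Atad2* (-0.55 ± 0.61) and *Ccne1* (-0.34 ± 0.66), which had lower values in replicate 1 and higher ones in replicate 2. Of the 8 genes of helicase loading 4 were higher in both libraries and 0 lower, and of the 3 genes of entry into S phase 0 were higher and 2 lower.

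Of the other gene lists, edgeR called 0 endothelial, hematopoietic, mitosis or other replication genes in the *Runx1* split and 1 mesenchymal gene, *Col1a1*. With the replicate block it called 13 of 22 endothelial, 5 of 11 hematopoietic, 5 of 7 mesenchymal, 0 of 48 mitosis and 1 of 67 other replication genes. That 1 was *Rnaseh2c*, a subunit of ribonuclease H2 named here after its value was seen, with 207.3 against 21.43 CPM in replicate 1 and 164.5 against 90.14 in replicate 2, at an adjusted p of 0.854 by edgeR and 0.0244 with the block. By direction alone, the 22 endothelial genes were all lower in the *Runx1*-high cells of both libraries, 10 of 11 hematopoietic genes were higher, 27 of 67 other replication genes were higher and 7 lower, and 26 of 48 mitosis genes were higher and 5 lower. The 3 collagen-high cells lay on the *Runx1*-low side, where the summed mesenchymal markers reached 23000 CPM in a cell of replicate 1 and 20900 in a cell of replicate 2, against at most 289 and 110 on the high side, and 7 of 7 tested mesenchymal genes were lower in both. Without these cells the median log2 fold change of the replication genes was 0.034. Of the 8 macrophage markers *Adgre1*, *Cx3cr1*, *C1qa* and *C1qb* were at 0 in both libraries. *Mrc1* had a count in 71 of 87 cells (125.2 and 162.3 CPM), *Lyz2* in 34, *Cd68* in 18 and *Csf1r* in 4. In replicate 1 the 8 markers together reached 2260 CPM in a cell of the low side and 1360 of the high side.

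The cells were split at the median of *Gja5* CPM in the same way. In replicate 1 the *Gja5*-high cells began at 10.65 CPM, whereas the *Gja5*-low cells of replicate 2 had 18.61 to 146.09 CPM. The sides of this split are therefore unlike in absolute level between the libraries. In replicate 1 the *Gja5*-high cells had a median of 4987 CPM of replication genes and the *Gja5*-low cells 5065, and in replicate 2 these were 4936 and 3492. Of 41 genes, 6 (14.6%) were higher in the *Gja5*-high cells of both libraries, against 27.1% of all 10653 genes, and 10 (24.4%) were lower in both, against 26.9%. The median log2 fold change was -0.106, with -0.303 and 0.058 in the libraries. It was 0.177 when only the 14 highest and the 14 lowest cells of each library were used, so the sign depended on the split. By edgeR with Benjamini-Hochberg adjustment 0 of 41 passed (0.0% of all), at a smallest adjusted p of 1.0. With the replicate block 0 of 41 passed by edgeR (0.882% of all, smallest adjusted p 0.487), and by DESeq2 0 of 41 (0.674% of all). At an unadjusted p under 0.05, edgeR called 0 of 41 (4.06% of all), and with the replicate block 1 of 41 (7.72% of all).

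That 1 gene was *Ccne1*, the cyclin of entry into S phase, with 109.5 against 46.32 CPM in replicate 1 and 81.67 against 23.79 in replicate 2 (log2 fold change 1.43 ± 0.62, SE). Its value in the high cells of either library lay above that in the low cells of both. *Ccne1* was chosen by p in the same sums, and the share of all genes separated in this way was not counted. *Pola2* (0.76 ± 0.81) and *Pcna* (0.33 ± 0.40) had higher values in both libraries with errors about as large, and *Mcm6* and *Gins1* had higher values in replicate 1 only. Among genes with lower values in *Gja5*-high cells, *Mcm3* came first, with 171.9 against 297.2 and 189.8 against 198.5 CPM (-0.48 ± 0.40), followed by *Pola1* (45.48 against 99.61 and 26.48 against 32.13), *Rfc3* (99.22 against 153.6 and 29.68 against 68.58), *E2f1* (15.16 against 56.66 and 37.23 against 39.85) and *Mcm2* (113.0 against 166.2 and 118.1 against 144.0). Of 66 other replication genes 12 were higher and 20 lower in both libraries. The collagen-high cells lay on the *Gja5*-high side once in each library and on the low side once in replicate 1, and without them the median log2 fold change was -0.161.

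**Figure D5:**
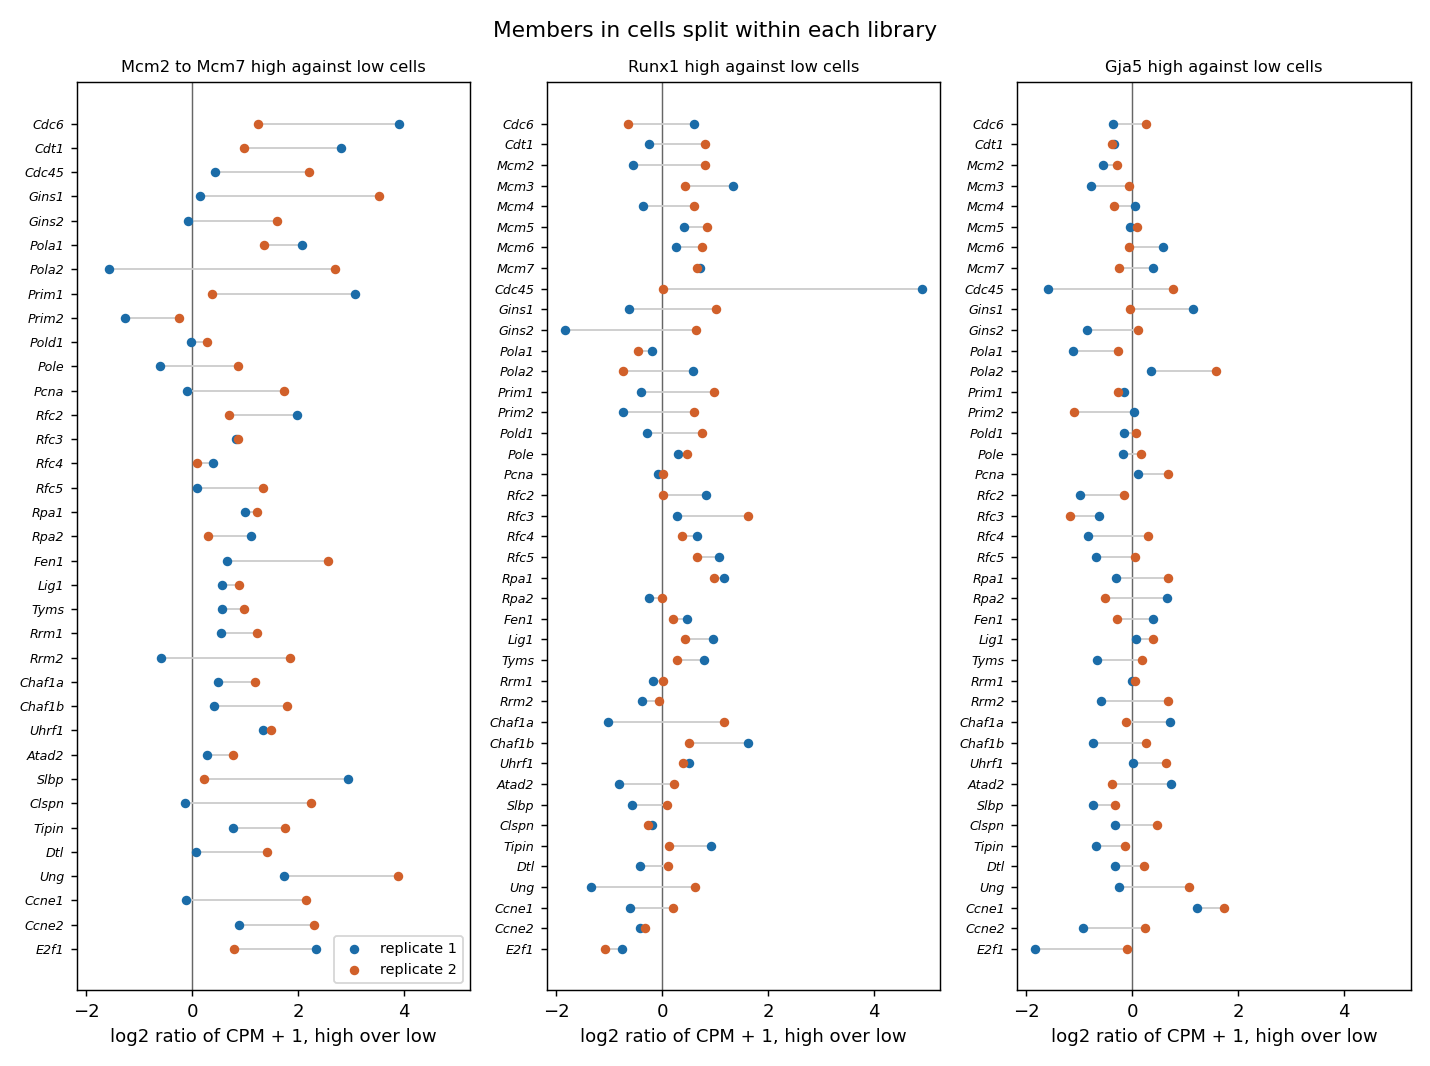
Log2 ratio of CPM + 1 in high over low cells for each replication gene, in replicate 1 (blue) and replicate 2 (orange), when cells of a library were split by *Mcm2* to *Mcm7*, *Runx1* or *Gja5*. In the first panel 26 of 35 genes have both points right of 0, and in the others 17 and 6 of 41 do.

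Both genes were then used at once, at the same medians of each library, which differ between the libraries. The *Runx1*-low *Gja5*-high cells had the lowest median CPM of replication genes in both libraries. Their median was 1557 CPM of replication genes in replicate 1 (11 cells) and 2515 in replicate 2 (13 cells). In each library 1 of these cells was collagen-high, and the medians were not taken again without it. The *Runx1*-high *Gja5*-low cells had 5061 (11 cells) and 4207 (13 cells), the cells high in both 5850 (10 cells) and 6593 (9 cells), and the cells low in both 5069 (11 cells) and 2954 (9 cells). The ranges overlapped, with 509.7 to 11150 CPM in the *Runx1*-low *Gja5*-high and 1286 to 10390 in the *Runx1*-high *Gja5*-low cells of replicate 1, and 940.1 to 8728 against 1951 to 8097 in replicate 2. At 20000 counts the *Runx1*-low *Gja5*-high cells had a median of 11 of the 41 genes in replicate 1 and 16 in replicate 2, with the module on in 6 of 11 and 11 of 13 cells. The cells low in both had medians of 15.5 and 12, with the module on in 10 of 10 and 7 of 9 cells, so that the lowest group by genes detected was another one in replicate 2. The *Runx1*-high *Gja5*-low cells had 18 and 26 (8 of 11 and 13 of 13 cells on), and the cells high in both 18 and 26 (8 of 10 and 8 of 9). The *Runx1*-low *Gja5*-high and the *Runx1*-high *Gja5*-low cells also differed in depth, the median cell holding 78277 counts against 245523 (replicate 1) and 220901 against 284710 (replicate 2), and the part of depth was not tested.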

How the data were processed

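Poly(A) RNA of 87 cells was profiled in 2 libraries by modified STRT-seq. The authors split reads by cell barcode, aligned them to mm10 and removed duplicates by UMI, and the deposited values are counts per gene and cell without normalization. The submitters' processing notes name HISAT2 2.1.0 and HTSeq. The strand setting was not given in the sources used here. The cell barcode files hold no measurement and were not used.

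The genes, lists, roles and tests were chosen with earlier results of these data known. Named genes were the 41 with their levels, the 5 pairs with the highest rho, the 10 genes most like (1 of them is not reported here) and 5 least like the module, and per split up to 5 each way by unadjusted p where none was called. No cell was removed and doublets were not called. CPM is per 1000000 counts of the cell or sum. Thinning drew 20000 counts without replacement. Cells are not replicates, so counts were summed per library and side of a median split giving 4 sums. These were compared with the quasi-likelihood test of edgeR 4.0.16 in R 4.3.3, after filterByExpr and TMM, with Benjamini-Hochberg adjusted p held against 0.05 and no block, as the methods name none. The SE was taken from the fold change and the F statistic. The script was tested on simulated data. Genes used for a split were left out of its counts. p-values measure the spread between these libraries, which may be technical, since the labels do not tie them to separate embryos. Sums of the same number come from 1 library and are therefore paired, and the deviations of paired sums from their means correlated at 0.177 to 0.184 across genes, which are not independent replicates. Alternatives were the replicate block, DESeq2 1.42.0 and its size factors, no low-count filter, thinned cells, only the 14 highest and 14 lowest cells of each library, no collagen-high cells, other depths and thresholds, and each library left out. A mean over 20 thinning draws and correlations without a library were added after the data were seen. Symbols matched GENCODE M21 (GRCm38) for all 41, 2 listed genes through RefSeq synonyms. Python 3.11.15, pandas 2.3.3, numpy 2.4.6, scipy 1.17.1 and matplotlib 3.10.9 were used.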

Additional observations from a re-analysis of the deposited data

How the results depend on the processing

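The count of the 41 replication genes called was 0 in all 3 splits under every alternative run, so the replicate block changed no call among them. Over all tested genes the block moved the count of calls from 0 to 17 (Mcm), 1 to 166 (*Runx1*) and 0 to 94 (*Gja5*), and DESeq2 called 29, 137 and 89. The number of sums limits this: 4 sums leave few degrees of freedom, and a count of 0 does not show that the genes did not differ. The share of cells with the module on depended on its threshold and on depth. With at least 8 genes required it was 88.1% in replicate 1 and 97.7% in replicate 2, with at least 14 genes 59.5% and 72.7%, with at least 2 counts per gene 57.1% and 68.2%, and without thinning 93.0% and 100%. At 50000 counts it was 100% in the 36 cells of replicate 1 deep enough and 97.7% in replicate 2, and at 10000 counts 62.8% in replicate 1 and 72.7% in replicate 2. The median pairwise rho, 0.186 as the mean of both libraries, was 0.237 without thinning, 0.231 over genes detected in 40% of cells and 0.14 with genes detected held fixed, and lay between 0.159 and 0.213 with 1 library left out. The mean rho with *Runx1*, 0.153, was 0.257 without thinning, 0.26 with another seed and 0.062 with the module sum alone adjusted for genes detected. It was 0.056 to 0.249 and that with *Gja5* -0.199 to 0.033 with 1 library left out. With only the 14 highest and 14 lowest cells of each library, the median log2 fold change was 1.527 for the Mcm split and 0.177 for the *Gja5* split, where it reversed, and the cause was not tested. With 1 library left out these medians were 0.552 to 1.253 (Mcm), -0.18 to 0.391 (*Runx1*) and -0.303 to 0.058 (*Gja5*), so the sign of the last 2 rested on which library was used. In the paired fit with the replicate block the medians were 1.029, 0.171 and -0.071.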
